A study of Sus scrofa with 8 samples.

Results

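Endothelial and sinusoidal genes of the porcine liver were followed in young livers (YL) and old livers (OL). The set was named by symbol and holds PECAM1, VWF, STAB1, STAB2, LYVE1, KDR, TEK, ENG, S1PR1 and S1PR3. Of these 10 genes, 8 had an Ensembl identifier among the 21607 mRNA identifiers of the deposited table, of which 11654 could be given a symbol. VWF and STAB2 were not matched to an identifier and were not analysed here. The livers of 2 healthy young sows aged 180 days and 2 healthy old sows aged 8 years, all of the indigenous Chinese breed Yanan, gave 1 rRNA-depleted RNA-seq library each. Pieces of whole liver were sequenced, with no sorting of cells and no treatment named for either group, and the sows were not closely related. According to the study, the young sows had never given birth, and the old sows had given birth over many years. Age and birth history therefore cannot be told apart in these livers.

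Hepatic sinusoids are lined by a thin, fenestrated endothelium that clears waste molecules from blood through scavenger receptors such as the stabilins. Larger liver vessels carry a continuous endothelium, in which PECAM1 and VWF are typical. Endothelial survival and barrier function depend on receptor kinases for VEGF and angiopoietins, on the co-receptor endoglin for ligands such as BMP9, and on receptors for the blood lipid sphingosine 1-phosphate. Fewer endothelial cells and less RNA per endothelial cell cannot be told apart in such bulk libraries.

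Levels are given as CPM, reads scaled to a library total that is not stated, and they carry no correction for gene length. Levels of different genes are therefore not compared. The listed mRNAs held 22482241 to 37555696 reads per library, fewer in both old livers than in both young livers. Old replicate 1 stood apart from the other libraries. The summed level of 14 interferon-stimulated genes was 1907 CPM there, against 49.8 and 64.8 CPM in YL and 46.0 CPM in old replicate 2. All 5 measured markers of T and NK cells were also highest there, with a summed level of 222 CPM against 37.5 to 58.7 CPM in the other livers. Most of that sum was CD247, with 206 CPM there and 30.4 to 53.2 CPM elsewhere. NKG7 was only just highest there, with 3.10 CPM against 2.95 CPM in old replicate 2. Hepatocyte markers were present in every library, with ALB, the gene of serum albumin, between 16534 and 35205 CPM.

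No member passed the tests run here between the age groups, although the study itself lists S1PR3 as up-regulated in OL. The members did not all lie on the same side, with 6 higher and 2 lower on average in OL. Fold changes were fitted with limma on log2(CPM + 1) over the 16898 mRNAs above 0 in at least 2 libraries, a filter that all 8 measured members passed. A call needed an absolute log2 fold change above 1 and a Benjamini-Hochberg adjusted p-value under 0.05. It was met by 0 of the 8 members and by 0 of all mRNAs tested (0%). Before adjustment, 0 members had a limma p-value under 0.05, against 15.7% of all mRNAs. The exact test of edgeR on recovered reads called 0 members against 3.16% of mRNAs, with 3 members (PECAM1, ENG and S1PR3) under 0.05 before adjustment, against 13.0%. The quasi-likelihood test of edgeR called 0 members (0% of mRNAs), with 2 (PECAM1 and ENG) under 0.05 before adjustment against 14.6%. DESeq2 called 0 members against 5.65%, with the same 3 as the exact test before adjustment against 14.5%. With 2 livers per group, an exact permutation test of a single gene cannot give a two-sided p-value below 0.333.

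PECAM1, ENG, S1PR1 and S1PR3 were higher in both old livers than in both young livers, and TEK was lower in both. Groups thus did not overlap for 5 of the 8 members, against 49.3% of all mRNAs tested. For 4 higher and 1 lower of 8, the shares over all mRNAs were 24.4% and 25.0%. The median log2 fold change was 0.84 over the members and -0.02 over all mRNAs. The members' median was 0.47 without old replicate 1 and 0.64 without old replicate 2. Values of STAB1, LYVE1 and KDR overlapped between the groups. Old replicate 1 was the highest library for 4 members and the lowest for 2, where 23.9% of all mRNAs were highest and 23.9% lowest in it.

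**Figure D1:**
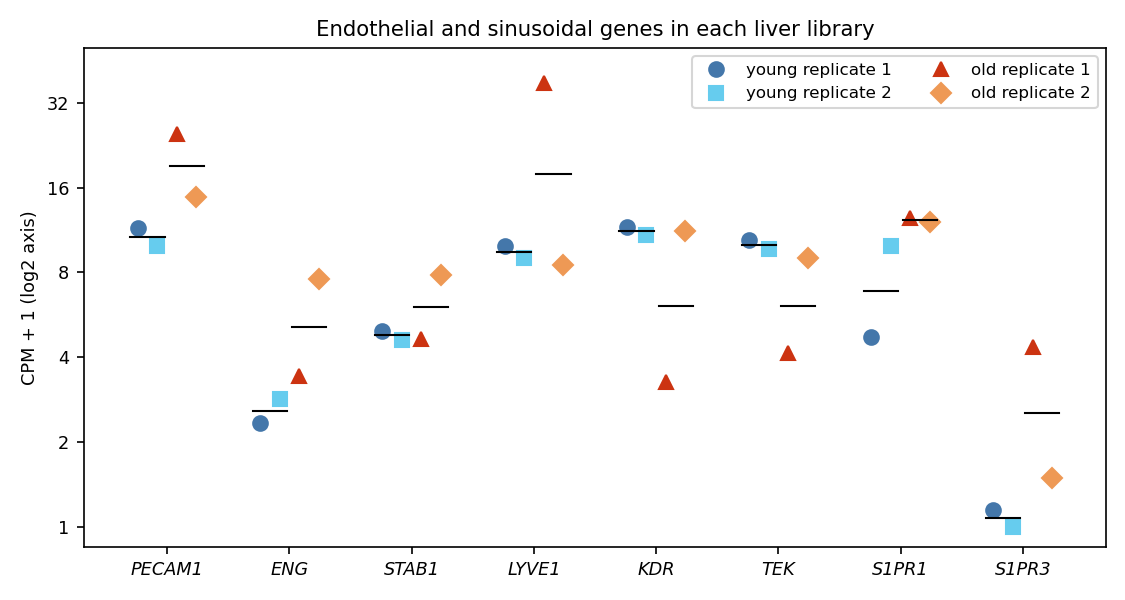
Level of each measured member in each library, as CPM + 1 on a log2 axis, where points are libraries and black bars are the means of log2(CPM + 1) of the 2 livers of an age. Old replicate 1 had the highest value for PECAM1, LYVE1, S1PR1 and S1PR3 and the lowest for KDR and TEK, whereas ENG and STAB1 were highest in old replicate 2.

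PECAM1 (ENSSSCG00000017277), an adhesion molecule at endothelial cell junctions that platelets and leukocytes also carry, had 10.5 and 8.92 CPM in YL and 23.8 and 13.8 CPM in old replicates 1 and 2. Both old livers lay above both young livers, and old replicate 1 lay furthest. The means were 9.72 ± 1.13 CPM (SD, n = 2) in YL and 18.8 ± 7.11 CPM (SD, n = 2) in OL, a ratio of 1.93. The log2 fold change was 0.84 (SE 0.32, 95% interval -0.14 to 1.82, limma adjusted p = 0.364), and it was 0.47 without old replicate 1 and 1.22 without old replicate 2. PECAM1 had the smallest limma p-value of the members (unadjusted p = 0.0737). The 4 of 8 platelet markers with an identifier summed to between 0.324 and 1.72 CPM per library, with GP1BB at 0 in all of them. T and NK cell markers were highest in old replicate 1, as PECAM1 was. The part of platelets and of these lymphocytes in the PECAM1 values was not tested.

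ENG (ENSSSCG00000005625), the co-receptor endoglin, was measured at 1.34 and 1.84 CPM in YL and at 2.44 and 6.57 CPM in OL. Here old replicate 2 was the higher of the old livers, by 2.7-fold, and old replicate 1 stood only a little above the young values. For ENG the log2 fold change was 0.99 (SE 0.47, limma adjusted p = 0.438), and it was 1.56 without old replicate 1 and 0.42 without old replicate 2. Markers of stellate cells and fibroblasts, which can also express endoglin, were likewise higher in old replicate 2. Of the 9 with an identifier, 7 were highest there, and their summed level was 57.7 CPM against 16.9 CPM in old replicate 1 and 23.1 and 42.3 CPM in YL. Their part in the ENG values was not tested.

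Among the sinusoidal scavenger and hyaluronan receptors, STAB1 (ENSSSCG00000011443), which encodes stabilin 1, had 3.97 and 3.59 CPM in YL and 3.62 and 6.84 CPM in OL. Old replicate 1 lay between the young livers, and only old replicate 2 lay above them. The log2 fold change of STAB1 was 0.33 (SE 0.32, limma adjusted p = 0.686) and was -0.05 without old replicate 2.

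LYVE1 (ENSSSCG00000029886), a hyaluronan receptor of sinusoidal and lymphatic endothelium that some macrophages also carry, had 8.89 and 8.01 CPM in YL, 36.5 CPM in old replicate 1 and 7.49 CPM in old replicate 2. Old replicate 1 was 4.32-fold above the young mean on 2245 reads, and old replicate 2 was below both young livers. The log2 fold change of 0.92 (SE 0.85, limma adjusted p = 0.676) was -0.15 without old replicate 1 and 1.99 without old replicate 2. Only 1.39% of all mRNAs tested had a gap between the old livers as large as that of LYVE1 on log2(CPM + 1).

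TIMD4, a receptor of resident Kupffer cells, had a similar order, with 12.8 and 23.3 CPM in YL and 52.3 and 10.7 CPM in old replicates 1 and 2. The other macrophage markers did not share it. C1QA and CD68 were higher in both old livers, MARCO and CSF1R were highest in old replicate 2, and MSR1 was lower in both. Over the 6 of 12 macrophage markers with an identifier, the sum was 223 and 256 CPM in YL and 347 and 299 CPM in OL, with none at 0. The 4 of 5 lymphatic markers with an identifier summed to 14.9 and 12.1 CPM in YL and 12.2 and 27.0 CPM in OL. PROX1 held the largest part, with 7.57 and 6.22 CPM in YL and 6.73 and 17.2 CPM in OL. Nearly all the rest was FLT4 and RELN, which are also on the sinusoidal and the stellate list. PDPN was at 0 in YL and measured at 0.0650 and 0.0700 CPM in OL. These sums are therefore not a measure of lymphatic vessels alone. The part of macrophages and of lymphatic vessels in the LYVE1 values was not tested.

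Among the members, the receptor kinases KDR and TEK showed the opposite pattern in the same library. Receptor kinases outside the members, FLT1, FLT4 and TIE1, did not share it. FLT1 was at its highest in old replicate 1, with 2.68 CPM against 0.751 to 2.44 CPM in the other livers. FLT4, with 4.24 CPM there, lay between the young livers, and TIE1 lay just above both of them. Of the 9 VEGF pathway genes measured, 2 were lowest in old replicate 1 and 2 highest (23.9% of all mRNAs each). NRP1, a co-receptor, was among the lowest, with 2.73 CPM against 4.15 to 6.01 CPM in the other livers. KDR (ENSSSCG00000008844), the main VEGF receptor of endothelium, had 10.6 and 9.87 CPM in YL, 2.26 CPM in old replicate 1 and 10.3 CPM in old replicate 2. Old replicate 1 was the only low library, 4.52-fold below the young mean, and old replicate 2 lay between the young livers. The 139 reads of old replicate 1 give a 95% Poisson interval of 1.90 to 2.67 CPM, which leaves out all 3 other values. Reads copied by PCR are not independent molecules, so such an interval covers counting error only. KDR had a log2 fold change of -0.89 (SE 0.71, limma adjusted p = 0.628), but 0.01 without old replicate 1.

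TEK (ENSSSCG00000005122), the receptor TIE2 for angiopoietins, had 9.42 and 8.66 CPM in YL and 3.14 and 8.00 CPM in OL. It was again old replicate 1 that was far below, whereas old replicate 2 was just under the young values. For TEK the log2 fold change was -0.72 (SE 0.45, limma adjusted p = 0.545), and without old replicate 1 it was -0.16. In old replicate 1, the difference from the young mean was -1.78 for KDR and -1.28 for TEK on log2(CPM + 1). Only 1.52% and 3.82% of all mRNAs tested lay as far below it there. Of the 10 hepatocyte markers measured, 6 were also at their lowest in that library, whereas 2, FGB and APOA1, were at their highest. The summed level of the markers was 33574 CPM there, of which ALB held 16534 CPM, against 40595 to 55618 CPM in the others. Of the 9 stellate cell and fibroblast markers measured, 6 were at their lowest there too. Their summed level was 16.9 CPM there, against 23.1 to 57.7 CPM in the others. The part of hepatocytes and of stellate cells in the KDR and TEK values was not tested.

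Of the receptors for sphingosine 1-phosphate, S1PR1 (ENSSSCG00000029849), which keeps the endothelial barrier tight, had 3.73 and 8.90 CPM in YL and 11.5 and 11.1 CPM in OL. It was the only member whose old livers were closer to each other than its young livers, which differed by 2.38-fold. The log2 fold change was 0.84 (SE 0.43, limma adjusted p = 0.46), and it was 0.31 without young replicate 1 and 1.37 without young replicate 2. The size of the S1PR1 difference therefore rested on the young livers.

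S1PR3 (ENSSSCG00000009580), which is carried by endothelium and by contractile and stellate cells, was scarcely found in YL. It had 14 reads (0.152 CPM) in young replicate 1 and 0 reads in young replicate 2, where 3 reads would be 0.0347 CPM. Old replicate 1 had 206 reads (3.35 CPM) and old replicate 2 had 35 reads (0.487 CPM). Both old livers lay above both young livers, and the 95% Poisson interval of old replicate 2, 0.339 to 0.678 CPM, did not meet that of young replicate 1, 0.0833 to 0.256 CPM. The ratio of the means was 25.2, with an old mean of 1.92 ± 2.02 CPM (SD, n = 2), and old replicate 1 alone was 44.0-fold and old replicate 2 alone 6.41-fold above the young mean. On log2(CPM + 1), which understates changes of low genes, the log2 fold change was 1.24 (SE 0.62, limma adjusted p = 0.452), with 0.47 without old replicate 1 and 2.02 without old replicate 2. On reads it was 4.85 in the exact test of edgeR (adjusted p = 0.273) and 4.87 in DESeq2 (adjusted p = 0.0845). The study, which used the classic analysis of edgeR, lists S1PR3 under the same identifier as up-regulated in OL. It gives the gene as a differentially expressed target of a lncRNA. Why the call of the study was not met here was not tested.

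**Figure D2:**
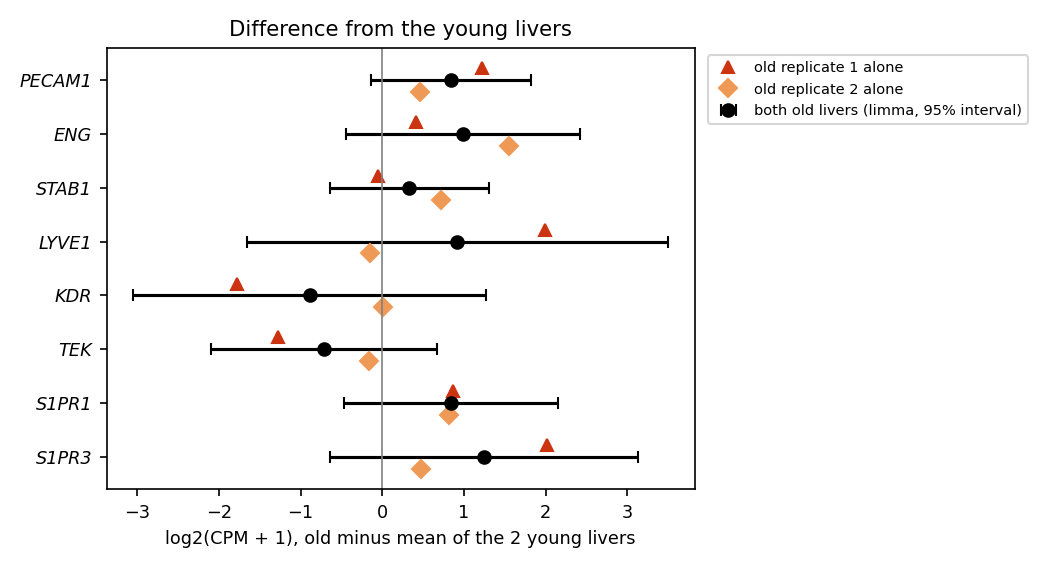
Difference in log2(CPM + 1) from the mean of the 2 young livers, for old replicate 1 alone (triangles), old replicate 2 alone (diamonds) and both (black points, with the 95% interval of limma). Every interval includes 0, and the triangles and diamonds lie far apart for LYVE1, KDR and S1PR3 but almost together for S1PR1.

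The old livers differed from each other more than the young livers did in these genes. On log2(CPM + 1), the gap between old replicates 1 and 2 was at least 1 for 5 of the 8 members (LYVE1, KDR, S1PR3, ENG and TEK), against 9.04% of all mRNAs tested and 14.5% of those with a mean of at least 1 CPM. The gap between the young livers was at least 1 for 1 member, S1PR1, against 9.00% and 11.8%. The median gap of the members was 1.13 between the old livers and 0.17 between the young livers, where all mRNAs tested had medians of 0.25 and 0.27 and those with a mean of at least 1 CPM had 0.40 and 0.34. The direction of the gap was not shared, since LYVE1, S1PR3 and PECAM1 were higher in old replicate 1 and KDR, TEK, ENG and STAB1 were higher in old replicate 2. All 14 interferon-stimulated genes were highest in old replicate 1, and their part in these gaps was not tested.

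Ratios of members within a library do not depend on the scaling of that library, apart from the pseudocount. The log2 ratio of LYVE1 to PECAM1 was -0.22 and -0.14 in YL, 0.59 in old replicate 1 and -0.80 in old replicate 2. The old livers lay on either side of the young livers (exact permutation test, two-sided, p = 1 for 2 against 2 livers). The log2 ratio of S1PR3 to S1PR1 was -2.04 and -3.31 in YL and -1.52 and -3.02 in OL, with overlap (exact p = 0.667). When STAB1 and LYVE1 were averaged and set against PECAM1, the old livers (-0.91 and -0.86) were below the young livers (-0.72 and -0.63). Their exact p of 0.333 is what any 2 against 2 livers without overlap give. The average joined genes that went opposite ways in OL. On log2(CPM + 1), old replicates 1 and 2 had 2.21 and 2.97 for STAB1 and 5.23 and 3.09 for LYVE1. The closeness of the old livers in the average was therefore not a trait of either gene.

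Other endothelial genes were read from fixed lists. Of 22 genes expressed widely in endothelium, 12 had an identifier and all were tested. Among these, 7 were higher in both old livers (24.4% of all mRNAs were) and 0 lower, with a median log2 fold change of 0.51 (0.32 without old replicate 1). In limma 2 of the 12 had an unadjusted p-value under 0.05, against 15.7% of all mRNAs, and none an adjusted one. EGFL7, a secreted factor of endothelium, had 1.49 and 1.23 CPM in YL and 5.17 and 5.21 CPM in OL. Its log2 fold change was 1.39 (SE 0.12, limma adjusted p = 0.213), and it passed the exact test of edgeR (adjusted p = 0.0178). NOS3, the endothelial nitric oxide synthase, had 0.457 and 0.624 CPM in YL and 6.34 and 2.20 CPM in OL, and passed the exact test of edgeR (adjusted p = 0.0161) but not limma (adjusted p = 0.287). CD93, ESAM, TIE1, CLEC14A and ROBO4 were the others with no overlap, with log2 fold changes of 0.48 to 0.81. CLEC14A shared with LYVE1 the high value in old replicate 1, with 17.2 CPM there and at most 6.79 CPM elsewhere. In old replicate 2, CLEC14A lay above both young livers, whereas LYVE1 lay below both.

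Of 19 genes linked to sinusoidal endothelium, 10 had an identifier and 9 were tested, with a median log2 fold change of 0.23. In both old livers 4 of them were higher (24.4% of all mRNAs were) and 1 was lower (25.0%), and 1 of the higher ones, CRHBP, rested on 5 and 3 reads in OL. Leaving out old replicate 2 gave a median of -0.05 and leaving out old replicate 1 gave 0.43. FCN2, a secreted lectin of innate immunity, had 36.8 and 42.7 CPM in YL and 148 and 107 CPM in OL. The exact test of edgeR called FCN2 (adjusted p = 0.0311), and limma did not (adjusted p = 0.213). MRC1, a mannose receptor of sinusoidal endothelium and macrophages, was lower, with 20.2 and 19.4 CPM in YL and 9.88 and 12.5 CPM in OL (log2 fold change -0.78, adjusted p = 0.241, limma). F8, coagulation factor VIII, had 1.93 and 5.88 CPM in YL and 6.55 and 6.32 CPM in OL. OIT3 shared the order of KDR, with 4.29 CPM in old replicate 1 and 11.5 to 17.9 CPM in the other livers. CLEC1B and CRHBP were at 0 in both young livers and at most at 0.0810 CPM in OL.

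**Figure D3:**
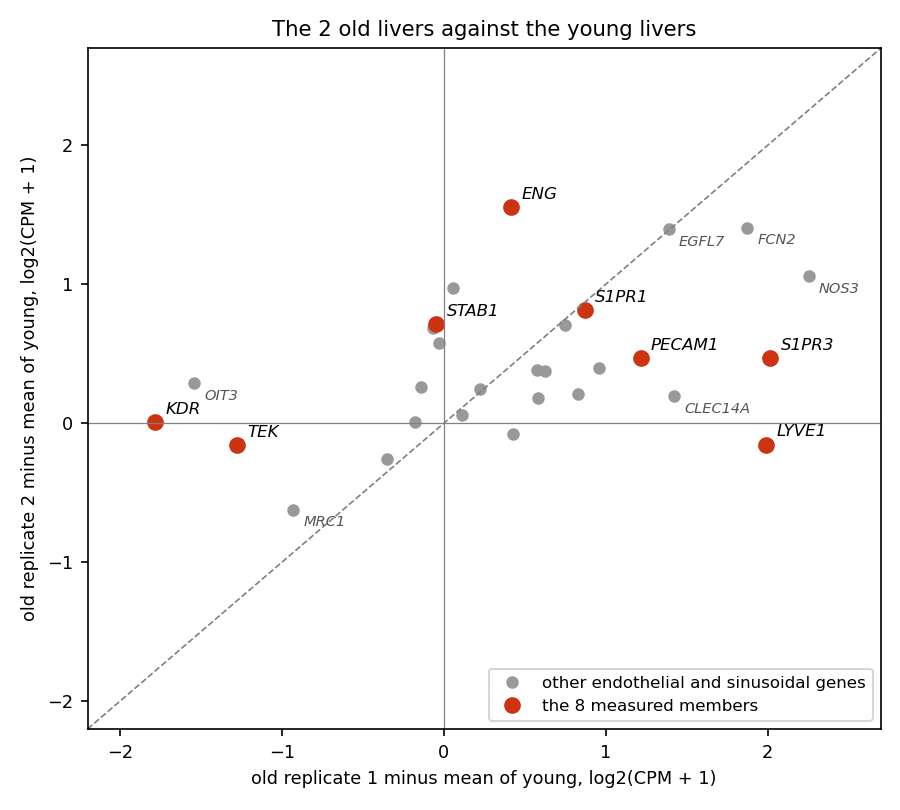
Difference in log2(CPM + 1) from the mean of the young livers, in old replicate 1 (horizontal axis) and old replicate 2 (vertical axis), for the 8 members (red) and for the other endothelial and sinusoidal genes of the fixed lists (grey). On the dashed line both old livers are equal, and S1PR1 and EGFL7 lie close to it, while KDR, TEK and OIT3 are to the left of it and LYVE1, S1PR3 and CLEC14A to the right.

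Genes of activated endothelium were few, with 4 of 8 matched and a median log2 fold change of 0.06, which was -0.23 without old replicate 1 and 0.35 without old replicate 2. SELP, the gene of P-selectin in endothelium and platelets, was lower in both old livers (0.0810 and 0.181 CPM) than in both young livers (0.479 and 1.34 CPM), and ICAM1 and VCAM1 overlapped.

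Ligands and partners of the members were also read from fixed lists, and no list had a gene that passed limma. Some genes, such as FLT1, FLT4, TIE1 and F8, stand on more than 1 list and are counted in each, so the lists are not separate sets. For the VEGF pathway of KDR, 9 of 11 genes were measured, 2 of them higher and 0 lower in both old livers (24.4% and 25.0% of all mRNAs), with a median log2 fold change of 0.27, which was 0.0011 without young replicate 2 and 0.05 without old replicate 2. VEGFA, the main ligand, had 35.5 and 25.6 CPM in YL and 33.7 and 18.7 CPM in OL, and NRP2, a co-receptor, had 1.03 and 0.462 CPM in YL and 1.66 and 1.18 CPM in OL. All 8 genes around TEK were measured, 3 higher and 1 lower in both old livers (24.4% and 25.0% of all mRNAs), with a median of 0.02 (-0.12 without old replicate 2) and a mean of -0.03. Of these, the receptor TIE1 was at 1.11 and 1.12 CPM in YL and 1.2 and 3.16 CPM in OL. Among the angiopoietins, the ligands of TEK, ANGPT4 had 0.196 and 0.289 CPM in YL and 1.38 and 0.835 CPM in OL (log2 fold change 0.75, SE 0.19, limma adjusted p = 0.260). Groups did not overlap for ANGPT4, whose unadjusted limma p-value was 0.0235. ANGPT1 was also higher in both old livers (0.894 and 0.334 CPM) than in both young livers (0.240 and 0 CPM), and ANGPT2 overlapped. Both ANGPT1 and ANGPT2 stayed under 1 CPM in every library.

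For the BMP9 and TGF-beta pathway of ENG, 13 of 16 genes were measured, 4 higher and 2 lower in both old livers (24.4% and 25.0% of all mRNAs), with a median of 0.11 (0.16 to 0.24 with each library left out). TGFBR2, the type II receptor for TGF-beta, had 9.49 and 6.24 CPM in YL and 19.6 and 21.4 CPM in OL. Its log2 fold change was 1.30 (SE 0.24, limma adjusted p = 0.228), and DESeq2 called it (adjusted p = 0.00553) whereas the exact test of edgeR did not (adjusted p = 0.0896). GDF2, which encodes BMP9, had 3.03 and 4.67 CPM in YL and 6.70 and 5.21 CPM in OL. SMAD4 and SMAD5, signal carriers of the pathway, were the lower ones, with log2 fold changes of -0.34 and -0.29.

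All 14 genes of sphingosine 1-phosphate metabolism, transport and further receptors were measured. They held more genes lower in both old livers (7, where 25.0% of all mRNAs were) than higher (3, where 24.4% were), with a median log2 fold change of -0.18 (-0.40 without old replicate 2). SGPL1, the lyase that degrades sphingosine 1-phosphate, had 9.0 and 8.49 CPM in YL and 3.48 and 4.61 CPM in OL (log2 fold change -0.96, standard error 0.17, adjusted p = 0.223, limma). PLPP3, a phosphatase that inactivates it outside cells, had 37.5 and 34.8 CPM in YL and 14.3 and 22.1 CPM in OL. APOM, its carrier on lipoproteins, which hepatocytes make, had 123 and 221 CPM in YL and 47.7 and 58.7 CPM in OL, and was called by DESeq2 (adjusted p = 0.0402) but not by limma (adjusted p = 0.247). ASAH1, a ceramidase, had 5.02 and 7.44 CPM in YL and 4.0 and 3.40 CPM in OL. SPNS2, the endothelial exporter, was on the other side, with 0.479 and 0.0350 CPM in YL and 0.98 and 1.09 CPM in OL. Of the 10 hepatocyte markers measured, 8 also had a negative log2 fold change, and their part in these values was not tested.

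Genes of VWF and hyaluronan turnover had 7 of 11 identifiers and 6 tested, of which 3 were higher and 0 lower in both old livers (24.4% and 25.0% of all mRNAs), with a median of 0.67 (0.40 without young replicate 1). ADAMTS13, the protease that cleaves VWF, had 0.403 and 0.370 CPM in YL and 1.06 and 1.60 CPM in OL. CD44, a hyaluronan receptor of many cell types, had 7.37 and 9.80 CPM in YL and 12.4 and 14.9 CPM in OL (log2 fold change 0.62, adjusted p = 0.318, limma). HYAL2, a hyaluronidase, had 20.7 CPM in old replicate 1, the library with high LYVE1, and 3.43 to 6.23 CPM in the other livers.

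**Figure D4:**
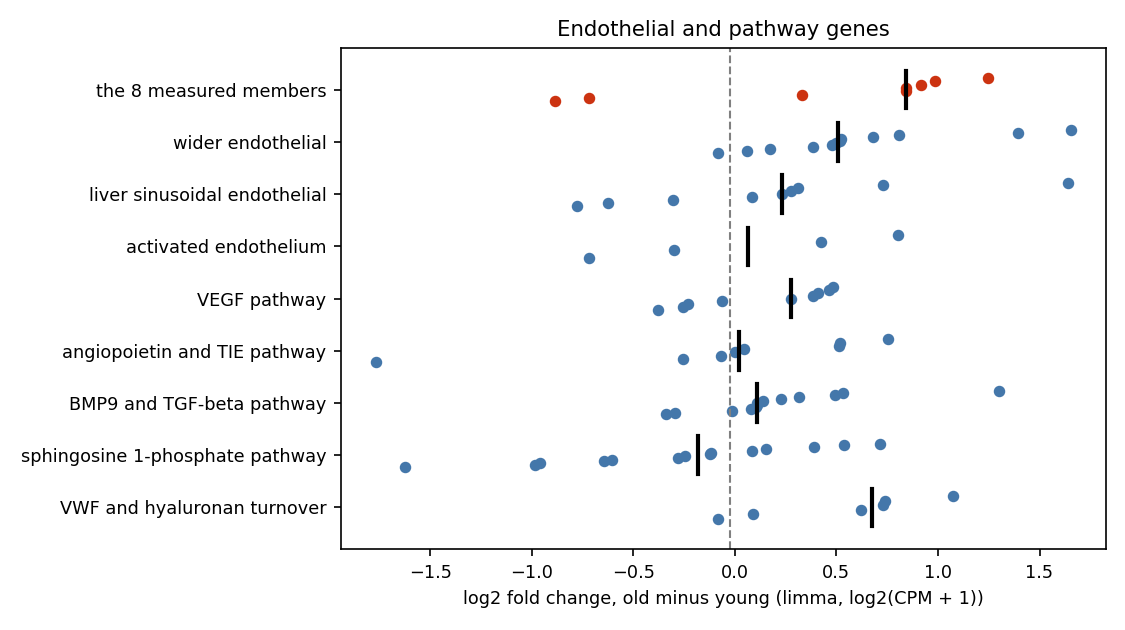
Log2 fold change between old and young livers (limma on log2(CPM + 1)) of the 8 members (red) and of each tested gene in 8 fixed lists (blue), with a black bar at the median of each list and a dashed line at the median of all mRNAs tested (-0.02). The members reach from -0.89 to 1.24, and the genes of sphingosine 1-phosphate metabolism are the only list drawn with a median below 0. A gene on more than 1 of these lists is drawn in each.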

How the data were processed

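Liver RNA-seq libraries of 2 young and 2 old sows were grouped by age from their labels, which name no batch. The CPM values were made by the authors and deposited under the name TPM. They aligned clean paired-end reads to Sscrofa10.2 with TopHat2 2.0.14, assembled transcripts with StringTie 1.2.3 and quantified them with Salmon 0.6.0, and replicates were not pooled. Within each library 100% of the values above 0 were whole multiples of 1 step (within 0.0006 CPM), so no gene length enters them and whole reads were recovered. Whether counting used strand is not given in the sources used here.

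Symbols came from an Ensembl identifier table. The main test was limma 3.58.1 on log2(CPM + 1) with Benjamini-Hochberg adjustment over 16898 mRNAs. The exact and quasi-likelihood tests of edgeR 4.0.16 and DESeq2 1.42.0 were run on recovered reads, in R 4.3.3 and Python 3.11.15. Tests were tried on simulated counts.

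The members and lists were chosen with earlier results of these data known. Named genes were all members and, from each endothelial, pathway and macrophage list, up to 4 genes without overlap between the age groups, with a mean of at least 1 CPM and the smallest p-value. ROBO4, CLEC14A, OIT3, CLEC1B, CRHBP, SELP, ICAM1, VCAM1, VEGFA, ANGPT1, ANGPT2, ANGPT4, SPNS2, CSF1R, ADAMTS13, HYAL2, TIMD4 and PDPN were named after their values were seen. So were FLT1, FLT4, NRP1, PROX1, RELN, CD247, FGB and APOA1. Some genes that the rule names are not reported here. Replicate numbers did not pair animals, which were unrelated. Libraries of the other RNA classes were not analysed here.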

Additional observations from a re-analysis of the deposited data

How the results depend on the processing

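Under 15 alternatives for the pseudocount, filter, scaling, variance model, test, replicate block and left-out libraries, 0 members were called in each, and the lowest adjusted p-value of a member was 0.0845 (S1PR3, DESeq2). Of 119 log2 fold changes recomputed, 116 kept their direction. The exceptions were STAB1 at -0.048 without old replicate 2, and LYVE1 at -0.15 and KDR at 0.0067 without old replicate 1, where the remaining old liver was close to the young level. With each library left out in turn, STAB1 ranged from -0.048 to 0.71, LYVE1 from -0.15 to 1.99 and KDR from -1.78 to 0.0067, and the median of the members from 0.47 to 0.79. The calls over all mRNAs were 0 in limma, 2 with a mean of at least 1 CPM, 534 in the exact test of edgeR (457 higher and 77 lower) and 880 in DESeq2 (683 higher and 197 lower). The cause of these differences in calls was not tested.

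Scaling to TMM factors or to equal mRNA totals raised the median log2 fold change of the members to 1.02 and 1.06. Differences between replicates 1 and 2 in young and old livers had r = 0.09 across 16898 mRNAs, so the replicate numbers were taken as names, and with the replicate block 0 mRNAs and 0 members were called and the median stayed at 0.84. Limits of 2 livers per age and of 14 reads of S1PR3 in young livers apply throughout. The planned ratio of STAB2 to STAB1 could not be computed, and the average of STAB1 and LYVE1 against PECAM1 stands for the planned one with STAB2 and VWF. With log2(CPM + 0.1) its difference between old and young livers was -0.22 as before, and that of S1PR3 to S1PR1 was 2.21 instead of 0.40.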
